A study of Caenorhabditis elegans with 2 samples.

Results

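Autosomal tRNA genes were examined in a chromatin immunoprecipitation and sequencing (ChIP-seq) experiment on SEA-2, a zinc finger protein known from worm sex determination and developmental timing. The regions are the candidate peaks of the pooled replicates whose summit lay within 500 bp of an annotated tRNA gene on chromosomes I to V. There were 419 such candidates among 82563 in the pooled ranked list, and 19 of the 419 were also in the authors' optimal list and are called selected peaks. The other 400 are called background. Whole young adult Caenorhabditis elegans of strain OP586 were collected at 64 hours, after synchronisation by bleaching and starvation as L1 larvae. The strain carries wgIs586, a transgene that encodes SEA-2 fused to TY1, EGFP and 3xFLAG together with unc-119(+), in the unc-119(tm4063) mutant. The experiment has 1 group of 2 biological replicates, and an input or a strain without the fusion was not analysed here. The immunoprecipitation used an antibody to GFP per the sample descriptions, while the antibody field names sea-2. Because whole animals were used, cell types were not resolved, and signal in few cells cannot be told apart from weak signal in many.

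Transfer RNAs carry amino acids to the ribosome and read the codons of an mRNA with their anticodon. Their genes are transcribed by RNA polymerase III from promoters that lie inside the gene. The internal promoter has an A box near the 5′ end and a B box towards the 3′ end; TFIIIC binds both boxes and brings in TFIIIB, which sits just upstream of the gene and recruits the polymerase. Genes for the same tRNA exist in many identical or near-identical copies, so reads from the gene body may be placed at the wrong copy, whereas reads that reach into the flanks are more often unique. In worms many tRNA genes lie inside introns of protein-coding genes.

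The sequences below are the tRNA genes at 4 of the strongest selected peaks and, for contrast, at a strong background candidate. They are shown for the internal promoter boxes that each of these genes holds. Each is printed 5′ to 3′ along the strand of the gene, from the WBcel235 genome of RefSeq, with the A box and then the B box in capitals. C14B9.t2 (chrIII:8109603-8109724, plus strand) encodes a tRNA-Leu with anticodon CAA and holds an intron at bases 39 to 76. T23F1.t1 (chrV:15465086-15465158, plus strand) encodes a tRNA-Lys with anticodon TTT. F44A2.t1 (chrV:9318202-9318273, plus strand) and Y38E10A.t1 (chrII:12678314-12678385, plus strand) encode tRNA-Ala with the anticodons CGC and TGC. W09G10.t1 (chrII:3521487-3521558, minus strand), a tRNA-His gene with anticodon GTG, lay at the background candidate.
C14B9.t2, selected: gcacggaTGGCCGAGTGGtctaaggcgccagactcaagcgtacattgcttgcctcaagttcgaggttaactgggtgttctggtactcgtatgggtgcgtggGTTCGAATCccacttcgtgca
T23F1.t1, selected: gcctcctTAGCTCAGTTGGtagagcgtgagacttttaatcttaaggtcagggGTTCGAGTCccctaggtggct
F44A2.t1, selected: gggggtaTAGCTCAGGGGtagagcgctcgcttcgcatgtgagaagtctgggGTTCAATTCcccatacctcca
Y38E10A.t1, selected: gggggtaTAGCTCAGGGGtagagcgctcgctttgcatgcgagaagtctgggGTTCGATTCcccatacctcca
W09G10.t1, background: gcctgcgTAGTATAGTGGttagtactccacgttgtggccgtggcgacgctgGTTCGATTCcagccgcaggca

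The B box was searched as GTTCGANNC or GTTCAANNC, so that no site matches both, and the A box by its usual pattern. Genes were searched along their own strand, without introns, and windows around summits on both strands. A B box was present in 319 of 336 autosomal tRNA genes (94.9%) and an A box in 307 (91.4%), so nearly every gene had the internal promoter whether or not a peak was selected there. The 2 tRNA-Ala genes F44A2.t1 and Y38E10A.t1 differ at few bases, with 69 of 72 identical (95.8%). Their B boxes are different variants, GTTCAATTC in F44A2.t1 and GTTCGATTC in Y38E10A.t1. W09G10.t1 carries the same B box letters as Y38E10A.t1. Identical copies of the gene body were counted among the 612 annotated nuclear tRNA genes only, here and below. There were 0 for C14B9.t2 and F44A2.t1, 13 for T23F1.t1, 7 for Y38E10A.t1 and 10 for W09G10.t1.

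Each replicate had a ranked list, with 51269 candidates in replicate 1 and 50405 in replicate 2, and a thresholded list, with 167 and 119 peaks. The pooled optimal list held 453 peaks and the smaller conservative list 431. The irreproducible discovery rate (IDR), which measures how far the rank of a peak repeats between compared lists, was 0.01 or less for all 453 optimal peaks in the second pooled ranked list. In the pooled ranked list that defines the members it was 0.01 or less for 328 of the 453. Signal is the authors' value per peak, and its scale is not given in the sources used here. Read depth is unknown.

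Candidates near autosomal tRNA genes were in the optimal list at a higher share than candidates at large. The selected share was 4.53% (19 of 419, exact 95% interval 2.75 to 6.99%), against 0.549% of all pooled candidates and 0.516% of autosomal candidates away from tRNA genes (346 of 67011, 0.463 to 0.574%). The intervals of the share near and away from tRNA genes do not overlap, and no test was made of this share. The 19 peaks made up 5.21% of the 365 optimal peaks on autosomes (3.16 to 8.01%). They lay within 500 bp of 20 of the 336 autosomal tRNA genes (5.95%, 3.67 to 9.04%). Any candidate, selected or not, lay within 500 bp of 296 of the 336 genes, and 40 genes had none. Most autosomal tRNA genes therefore had a candidate region without a selected peak.

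The selected peaks lay in or close to the genes, with 1 exception. Of the 19 summits, 10 lay inside the tRNA gene, 6 upstream and 3 downstream, and 18 were inside the gene or within 100 bp of it. Among the 400 background summits, 97 lay inside, 146 upstream and 157 downstream. The share selected was 9.35% of 107 candidates inside a gene (exact 95% interval 4.57 to 16.5%) and 6.06% of 132 at 1 to 100 bp (2.65 to 11.6%). It was 0 of 56 at 101 to 200 bp, where 3 counts would be 5.36% and the exact interval reaches 6.38%, and 0.806% of 124 at 201 to 500 bp (0.0204 to 4.41%). Beyond the window, 0.418% of 239 candidates at 501 to 1000 bp and 0.909% of 440 at 1001 to 2000 bp were selected. The excess over the share of all candidates was thus found within 100 bp of the gene.

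**Figure D1:**
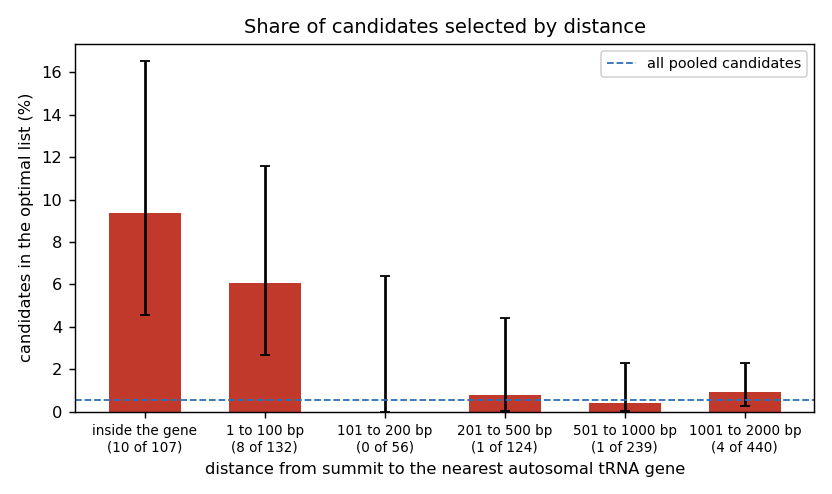
Share of candidates in the optimal list (vertical axis, %) by distance from the summit to the nearest autosomal tRNA gene (horizontal axis). Bars are shares with exact 95% intervals, counts stand under each bar, and the dashed line is the 0.549% of all pooled candidates; the bars inside the gene and at 1 to 100 bp stand above the line, at 9.35% and 6.06%.

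The same gradient appeared in candidates that were not selected. The median signal of background candidates was 44.99 inside the gene and 41.8 at 1 to 100 bp, and then 22.1 at 101 to 200 bp and 21.9 at 201 to 500 bp. The median over all pooled candidates was 24.9. Of the background members, 19 of 400 (4.75%, exact 95% interval 2.88 to 7.32%) ranked among the highest 1% of all candidates by signal, against 0.479% of 66665 unselected autosomal candidates away from tRNA genes. Of these 19, 12 had their summit inside the gene and 5 lay at 1 to 100 bp. In all, 119 of the 400 background members were in the highest 10% (29.8%). The pooled signal near the genes was thus high at many that missed the authors' threshold.

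**Figure D2:**
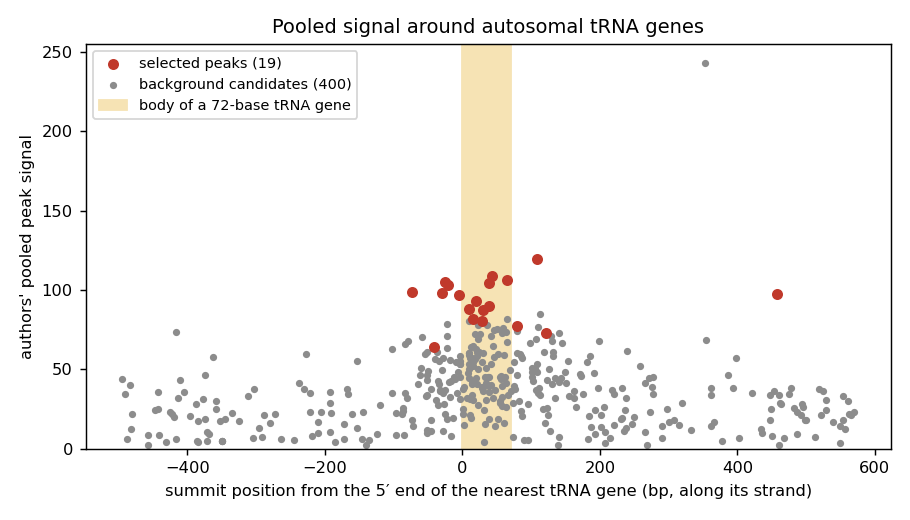
Authors' pooled signal (vertical axis) of each autosomal tRNA candidate by the position of its summit from the 5′ end of the nearest tRNA gene along its strand (horizontal axis, bp); the shaded band is a 72-base gene body. The 19 selected peaks lie between 63.9 and 119.7, mostly over or beside the band, and the background candidate at 243 lies outside it.

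Pooled signal of the 19 selected peaks ran from 63.9 to 119.7, with a mean of 93.3 ± 13.9 (SD, n = 19 peaks) and a median of 96.8. This was near the median of 92.98 of the 346 autosomal optimal peaks away from tRNA genes. Background signal ran from 2.16 to 243 with a median of 34.1. The groups overlapped: 36 background candidates exceeded the weakest selected peak and 1 exceeded the strongest. Since the lists were thresholded by rank and its repeatability, higher signal in selected peaks follows from how they were chosen and is a description only. In the authors' q values, 6 of the 19 were above 0.05. The matching share over the optimal list is not given here, so this count cannot be called high or low.

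The strongest peak lay at C14B9.t2 on chromosome III (8109559 to 8109862, ce11), the tRNA-Leu gene with an intron shown above. Its signal was 119.7 in the pooled list, 78.6 in replicate 1 and 33.7 in replicate 2, and its summit was 108 bases from the 5′ end, over the B box at bases 102 to 110. It has no identical copy among annotated tRNA genes and lies in C14B9.3, a protein-coding gene on the same strand. C14B9.t2 ranked 89 in replicate 1 and 1416 in replicate 2.

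Both tRNA-Lys peaks had the higher signal value in replicate 1, by unequal amounts, but only T23F1.t1 also had its better rank there. Each list has its own scale, with a median over all candidates of 18.97 in replicate 1 and 16.3 in replicate 2. At T23F1.t1 (V, 15464977 to 15465280, anticodon TTT) signal was 109 in the pooled list, 70.4 in replicate 1 and 29.5 in replicate 2. Its summit also lay 96 bp from T23F1.t2, a tRNA-Pro gene with anticodon TGG, the one case in which a selected peak reached a second tRNA gene. At B0350.t1 (IV, 5966982 to 5967285, anticodon CTT) the pooled signal was 105, with 55.4 in replicate 1 and 52.6 in replicate 2, and the summit lay 26 bp upstream of the gene. B0350.t1 has 24 identical copies and no other tRNA gene within 1000 bp. It had the highest replicate 2 signal of the 19 and ranked 170 there, better than in replicate 1, whereas T23F1.t1 ranked 2945 in replicate 2.

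The 3 tRNA-Ala peaks represented 3 anticodons. F44A2.t1 (V, 9318115 to 9318418, CGC) had a pooled signal of 107, with 55.5 in replicate 1 and 45.1 in replicate 2. Y38E10A.t1 (II, 12678089 to 12678392, TGC) had 98.9 pooled, 60.6 in replicate 1 and 35.2 in replicate 2. ZK622.t1 (II, 5292210 to 5292513, AGC) had 87.1 pooled, 55.4 in replicate 1 and 29.8 in replicate 2. The replicate 1 values were close together, and the replicate 2 values were not. Summits lay inside F44A2.t1 and ZK622.t1, while that at Y38E10A.t1 lay 73 bp upstream, with no B box within 100 bp of it. All 3 summits were also in promoter windows, 1000 bp upstream to 200 bp downstream of a protein-coding gene start. F44A2.t1 was nearest to such a start, 44 bp upstream of kvs-3.

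The tRNA-Gly peaks lay at genes with identical bodies, and so did the tRNA-Arg peaks. At Y82E9BR.t1 (III, 1424377 to 1424680, anticodon TCC) signal was 104 pooled, 55.2 in replicate 1 and 47.2 in replicate 2. At Y43D4A.t1 (IV, 16775110 to 16775413, TCC) it was 77.7 pooled, 49.5 in replicate 1 and 28.6 in replicate 2. Their gene bodies are the same over all 72 bases, with 28 identical copies of each elsewhere, so reads within them cannot be assigned by the body alone. Between these peaks the gap was wider in replicate 2 than in replicate 1. At F56F3.t1 (III, 4470827 to 4471130, TCG) signal was 103 pooled, 60.02 in replicate 1 and 44.4 in replicate 2. At F14B4.t1 (I, 9266980 to 9267283, TCG) it was 87.8 pooled, 55.5 in replicate 1 and 39.7 in replicate 2. These tRNA-Arg genes are identical over 73 bases, with 3 identical copies of each elsewhere, and they are 2 of the 3 autosomal genes with anticodon TCG. The summit lay 21 bp upstream of F56F3.t1 and inside F14B4.t1.

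The tRNA-Cys genes gave the weakest peak. T28C12.t1 (V, 6335205 to 6335508, anticodon GCA) had a pooled signal of 63.9, with 30.4 in replicate 1 and 33.5 in replicate 2, and F53F8.t1 (V, 20694025 to 20694328, GCA) had 81.6 pooled, 48.2 in replicate 1 and 36.4 in replicate 2. Their bodies share 70 of 72 bases (97.2%). T28C12.t1 ranked 1472 in the pooled list, behind every other selected peak, and its window held 0 repeated 31-mers. Of 6 autosomal tRNA-Cys genes, 2 had a selected peak.

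Both tRNA-Ser peaks lay inside the gene. ZC455.t1 (V, 12780277 to 12780580, anticodon TGA) had 90.1 pooled, 39.9 in replicate 1 and 47.3 in replicate 2. T02G6.t1 (I, 11803216 to 11803519, CGA) had 80.8 pooled, 44.6 in replicate 1 and 35.6 in replicate 2. They share 70 of 82 bases and lie inside protein-coding genes, T02G6.t1 in vab-10, a spectraplakin gene that links cytoskeletal filaments. The stronger replicate differed between the 2 genes.

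The remaining 5 peaks, like that at C14B9.t2, were each the only one of their amino acid. sup-5, a tRNA-Trp gene known for amber suppressor mutations, lay under a peak on III (8678396 to 8678699, anticodon CCA) with 92.8 pooled, 43.5 in replicate 1 and 48.6 in replicate 2. It lies within fli-1, the worm flightless gene, on the same strand, and has 9 identical copies. T03E6.t1 (tRNA-Gln, V, 16592161 to 16592464, CTG) had 96.8 pooled, 46.01 in replicate 1 and 48.8 in replicate 2. F22G12.t1 (tRNA-Val, I, 13160879 to 13161182, AAC) had 98.1 pooled, 59.5 in replicate 1 and 34.9 in replicate 2. The summit lay 5 bp upstream of T03E6.t1 and 30 bp upstream of F22G12.t1. Y54G2A.t3 (tRNA-Asp, IV, 2805597 to 2805900, GTC) had 72.6 pooled, 48.9 in replicate 1 and 23.4 in replicate 2, the lowest replicate 2 value of the 19. F31E9.t1 (tRNA-Tyr, V, 17317352 to 17317655, GTA) had 97.2 pooled, 46.1 in replicate 1 and 37.7 in replicate 2. Its summit lay 375 bp downstream of the gene, the only selected summit beyond 100 bp, with no B box within 100 bp. That summit was also 643 bp upstream of srz-58, a chemoreceptor family gene.

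**Figure D3:**
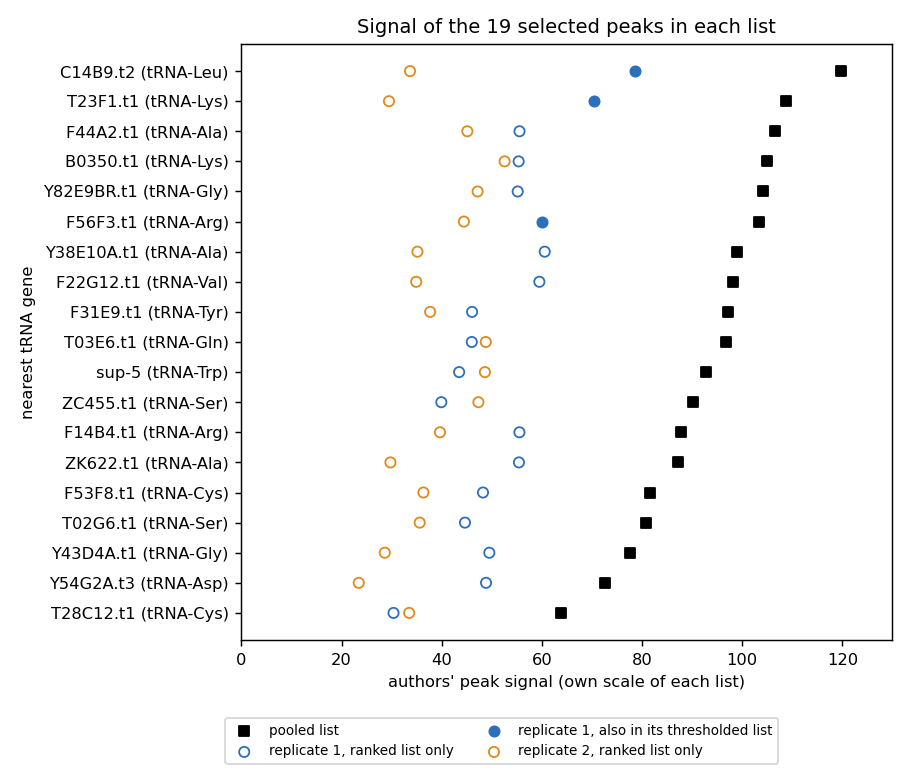
Signal of the 19 selected peaks (horizontal axis, own scale of each list) by nearest tRNA gene, ordered by pooled signal. Black squares are the pooled list, and circles are the overlapping candidate of each replicate, filled where it was in that replicate's thresholded list; the 3 filled circles all belong to replicate 1, at 78.6, 70.4 and 60.02.

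The replicates' own thresholded lists held few of these peaks. Of the 19, 3 overlapped a thresholded peak of replicate 1 (C14B9.t2, T23F1.t1 and F56F3.t1), 0 overlapped one of replicate 2, and 16 overlapped neither. None of the 400 background candidates overlapped either list. The thresholded lists held 167 and 119 peaks in all, against 453 in the optimal list. How many of the other optimal peaks overlapped them is not given here. The 3 of 19 can therefore not be read as a trait of tRNA genes. Counted within each replicate's own lists, 3 of 328 candidates near autosomal tRNA genes were selected in replicate 1 (0.915%, exact 95% interval 0.189 to 2.65%), against 0.326% of all its candidates, and 0 of 311 in replicate 2, against 0.236%. For the count of 0, 3 counts would be 0.965% and the exact interval reaches 1.18%. The selected share of autosomal tRNA candidates thus rested on the pooled list, and the share in neither replicate alone could be told apart from that of all its candidates at these counts.

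All 19 selected peaks did have a candidate in both replicates' ranked lists, against 244 of the 400 background candidates. Of the selected, 13 were in the highest 1% of replicate 1 by signal, 7 in the highest 1% of replicate 2 and 4 in both, against 12, 3 and 1 of the background. In the highest 10% the selected numbered 18 in each replicate and 17 in both, against 95, 74 and 36 of the background. Median signal in replicate 1 was 55.2 in selected peaks and 24.0 in the 313 background candidates with a value there, with 18.97 over all its candidates. In replicate 2 it was 36.4 in selected peaks and 20.3 in the 292 background candidates with a value, with 16.3 over all. Background candidates that overlapped no candidate of a replicate are left out of its median. Most of the peaks were therefore high in both replicates but absent from each replicate's own thresholded list. Replicate 1 had the higher signal in 15 of 19 and the better rank in 14. The pooled list is built from the same replicates, so these values describe how the peaks arose and are no separate test.

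**Figure D4:**
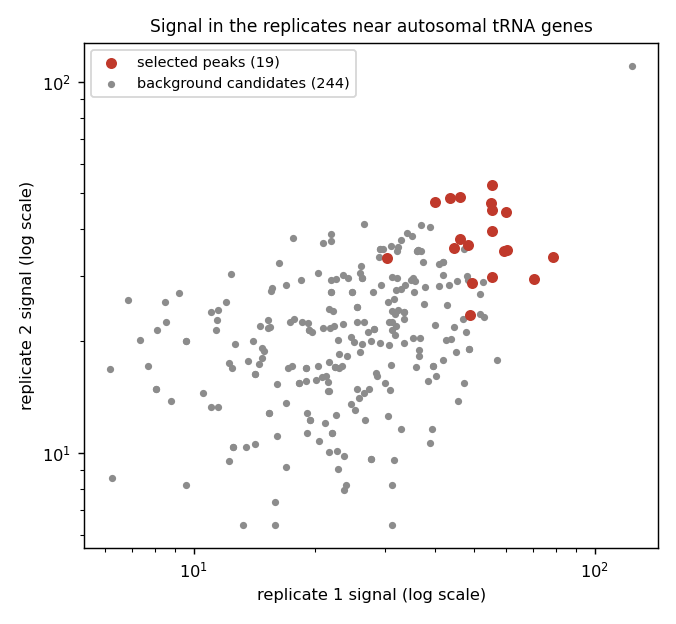
Signal in replicate 1 (horizontal axis, log scale) and replicate 2 (vertical axis, log scale) for the 19 selected peaks and the 244 background candidates with a candidate in both replicates. Selected peaks lie from 30.4 to 78.6 in replicate 1 and from 23.4 to 52.6 in replicate 2; 1 background point lies beyond them, at 124 and 110.5.

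Properties of the region and the gene were compared between selected and background candidates by two-sided Fisher's exact tests, adjusted by the Benjamini-Hochberg method over 5 features. Candidates that share a gene or a copy are not independent, and they are not biological replicates. The summit lay inside the gene in 10 of 19 selected peaks (52.6%) and 97 of 400 background candidates (24.3%), a difference of 28.4 points (adjusted p = 0.0302, exact test). A B box lay within 100 bp of the summit in 17 of 19 (89.5%) and 193 of 400 (48.3%), a difference of 41.2 points (adjusted p = 0.00279, exact test). Such a box was found near 5.30% of all 82563 candidates. Among candidates within 100 bp of a gene neither difference passed: 10 of 18 selected and 97 of 221 background summits were inside the gene, and 17 of 18 selected and 181 of 221 background summits had a B box (adjusted p = 0.768 for both, exact tests). Within 100 bp the difference was 11.7 points for the inside-gene share and 12.5 points for the B box. With 18 selected peaks, this does not show that either difference was absent there. Both features depend on distance from the gene, so these tests cannot tell them apart from it.

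The other features did not pass. The nearest tRNA gene lay within a protein-coding gene for 9 of 19 selected peaks (47.4%) and 230 of 400 background candidates (57.5%; adjusted p = 0.598, exact test). It had an identical copy for 14 of 19 (73.7%) and 293 of 400 (73.3%; adjusted p = 1, exact test), and the share among all 336 autosomal tRNA genes was 74.4%. The nearest tRNA gene had another tRNA gene within 1000 bp of it, called clustered, for 2 of 19 (10.5%) and 110 of 400 (27.5%; adjusted p = 0.197, exact test). With 19 selected peaks the exact 95% interval of the last share runs from 1.30 to 33.1%, so these tests do not show that the groups were alike.

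Repeated sequence differed between the groups over the whole window and less so near the gene; neither difference was tested. The median share of 31-mers around the summit that recur in the nuclear genome was 29.2% in selected peaks and 7.60% in background over all members. Among members within 100 bp of a gene it was 29.5% in selected peaks and 27.5% in background. The median GC content was 44.3% in selected peaks and 43.8% in background over all members, and 44.8% in selected peaks and 46.3% in background within 100 bp. More than 50% of the 31-mers recurred in 0 of 19 selected peaks and 17 of 400 background candidates (4.25%). The part of misplaced reads in the signal was not tested.

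Protein-coding genes lay around many of the peaks. Of the 9 tRNA genes that lie inside one, 4 were on its strand, as at C14B9.t2, sup-5, F53F8.t1 and T02G6.t1, and 5 on the opposite strand. Another 8 selected summits were in a protein-coding promoter window, against 75 of 400 background summits (18.8%), a difference that was not tested. Beside those of the tRNA-Ala genes, these were T23F1.t1 (pqn-71 and rocf-1), F31E9.t1 (srz-58), T03E6.t1 (srh-269, of another chemoreceptor family), Y43D4A.t1 (Y43D4A.5) and Y54G2A.t3 (Y54G2A.45). Without summits in promoter windows, an alternative chosen after seeing the data, the selected share was 3.27% (11 of 336 candidates, exact 95% interval 1.65 to 5.78%). No selected summit lay within 500 bp of an snRNA, snoRNA, rRNA or miRNA gene.

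The strongest background candidates missed the IDR threshold in the second ranked list, with 1 exception. The candidate near Y95D11A.t1 (tRNA-Phe, I, 10946022 to 10946325) had a pooled signal of 243, with 124 in replicate 1 and 110.5 in replicate 2, above every selected peak in all 3 lists. Its summit lay 281 bp from the gene, in a window where 95.3% of 31-mers recurred in the genome. The next were K08E7.t1 (tRNA-Lys, IV, 84.7 pooled, 36.8 in replicate 1 and 41.0 in replicate 2) and C16C8.t1 (tRNA-Lys, II, 81.9 pooled, 57.2 in replicate 1 and 17.8 in replicate 2). W09G10.t1, whose sequence is shown above, had 80.2 pooled, 51.9 in replicate 1 and 26.8 in replicate 2, and ZK507.t1 (tRNA-Asn, III) had 78.4, 42.8 and 24.99. The replicates were far apart at C16C8.t1 and close at K08E7.t1. In the second ranked list the selected peak with the lowest −log10 IDR was T02G6.t1 at 2.10, and W09G10.t1 at 1.99 was just short of the threshold. At the edge of the window, the candidate at Y110A2AL.t2 lay 495 bp from the gene (signal 43.7) and that at Y51H4A.t3 504 bp from it (19.7), both unselected. The nearest selected peak outside the window lay 935 bp from ZK994.t2 on V (279).

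With the conservative list in place of the optimal one, 17 of 419 members were selected (4.06%, exact 95% interval 2.38 to 6.42%), against 0.522% of all candidates. Of the 19 selected peaks 15 were in both lists, and the 4 missing were ZK622.t1, Y43D4A.t1, Y54G2A.t3 and T28C12.t1. Added were T04D3.t2 (tRNA-Gly, signal 77.0) and Y110A2AL.t1 (tRNA-Leu, 72.2).

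Autosomal tRNA candidates were selected less often than those on X. The share was 19 of 419 (4.53%) on autosomes and 32 of 281 (11.4%, exact 95% interval 7.92 to 15.7%) on X, a difference of -6.85 points (two-sided Fisher's exact test, p = 0.000941). With replicate 1's own lists it was -3.18 points, from 3 of 328 on autosomes and 10 of 244 on X (p = 0.0196, exact test). With replicate 2's it was -4.98 points, from 0 of 311 and 11 of 221 (p = 5.5e-05, exact test). Without promoter summits it was -9.23 points (p = 3.74e-05, exact test). These alternatives rerun the same comparison on overlapping data, so they are no separate support. Away from tRNA genes the order was the other way, with 0.516% on autosomes and 0.377% on X, a difference that was not tested. Signal of the selected peaks had a median of 96.8 on autosomes and 97.8 on X. Their summit lay inside the gene in 52.6% on autosomes and 59.4% on X. A B box lay within 100 bp of it in 89.5% and 90.6%, so neither trait was particular to the autosomes. Per gene, the median signal of the strongest candidate was 45.5 on autosomes and 51.3 on X. By gene, 20 of 336 autosomal (5.95%) and 40 of 276 X-linked tRNA genes (14.5%, 10.56 to 19.2%) had a selected peak. A peak near more than 1 gene counts for each of them, so genes that share a peak are not independent. On X the 40 genes stood at 32 peaks, and on autosomes the 20 genes stood at 19.

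Among the autosomes, V had the most, with 8 of 78 tRNA genes (10.3%, exact 95% interval 4.53 to 19.2%). The others had 3 of 66 on I (4.55%), 2 of 57 on II (3.51%), 4 of 64 on III (6.25%) and 3 of 71 on IV (4.23%). The intervals of all 5 overlap, and the difference between autosomes was not tested.

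**Figure D5:**
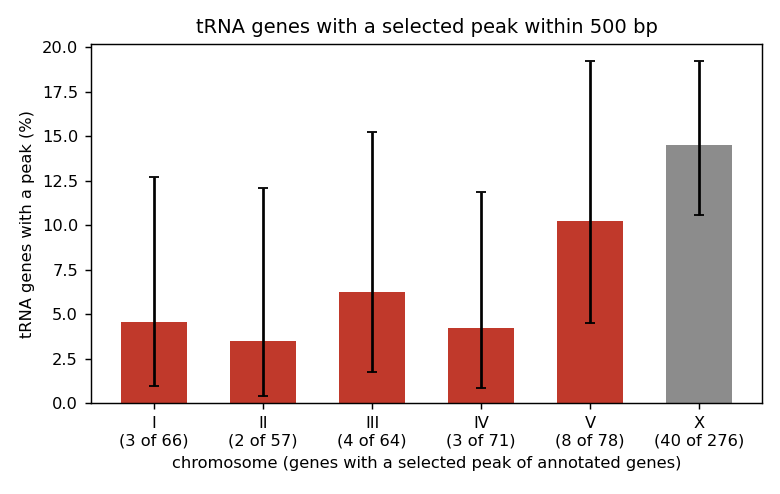
Share of annotated tRNA genes with a selected peak within 500 bp (vertical axis, %) on each chromosome (horizontal axis), with exact 95% intervals and counts under each bar; autosomes are red and X is grey. The autosomes run from 3.51% on II to 10.3% on V, and X is at 14.5%.

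The peaks were spread over many tRNA identities. Autosomal genes covered 21 amino acids, selenocysteine (Sec) included, and the genes nearest to selected peaks covered 12 of them with 16 anticodons. By amino acid, 3 of 21 tRNA-Ala genes, 2 of 17 Arg, 2 of 6 Cys, 2 of 35 Gly, 2 of 28 Lys and 2 of 21 Ser had a selected peak. A single gene had one among 15 for Asp, 12 for Gln, 22 for Leu, 7 for Trp, 11 for Tyr and 17 for Val, and among 22 for Pro through T23F1.t2. None had one among 20 for Thr, 18 for Glu, 16 for Ile, 14 for Asn, 12 for Met, 11 for His, 8 for Phe and 1 for Sec. The median signal of the strongest candidate per gene ran from 37.9 (Pro) to 61.1 (Cys) among the amino acids with a selected peak. Among those without one it ran from 33.9 for the single Sec gene, and 38.4 for Met, to 50.5 for Glu, so the ranges overlapped. With 1 to 3 peaks per amino acid, no preference for an amino acid can be read from these counts.

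Protein-coding genes listed for tRNA charging or for RNA polymerase III had no selected peak in their promoter windows. The list was not sorted by whether an enzyme acts on the products of nuclear tRNA genes. Of 40 listed genes for aminoacyl-tRNA synthetases, which charge tRNAs, and for RNA polymerase III subunits and factors, 38 were in the annotation. A candidate lay in the promoter window of 24, and 0 had a selected peak. With 0.549% of all candidates selected, a count of 0 at so few genes shows no depletion. The strongest were at iars-2 (isoleucyl-tRNA synthetase, signal 72.4, rank 769) and ears-2 (glutamyl-tRNA synthetase, 71.9, rank 797), both within the signal range of the selected tRNA peaks.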

How the data were processed

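The authors deposited 8 peak lists on ce11 (the WBcel235 sequence): a ranked and a thresholded list per replicate, and 2 ranked lists, an optimal and a conservative list for the pooled replicates. The deposited signal per peak is the authors' peak value. The deposited lists also hold a −log10 q value and a reproducibility score, the −log10 IDR, both as made by the authors. The sources used here name no aligner or peak caller. Depth is unknown, so its effect on precision cannot be stated. The number of columns left unmatched to a sample was 0.

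Summits were assigned to the 612 nuclear tRNA genes of Ensembl release 115, and all 612 were matched in RefSeq for the amino acid. Anticodons were read from the sequence and fitted the RefSeq amino acid in 314 of 336 autosomal genes. A replicate's value is that of its ranked candidate that overlaps the pooled peak by at least 1 bp, with the nearest summit. Shares have exact 95% Clopper-Pearson intervals, which cover counting error only, as does the 3-count limit for a count of 0. Fisher's exact tests compare candidates of 1 experiment, not animals. The tests were also run on simulated selections of independent members, at random and with a planted difference. That setting does not cover candidates that share a gene or a copy. Named were the gene nearest to each selected peak and those of the 5 strongest background candidates. Sequences were to be those of the 4 strongest selected peaks with the strongest background candidate, one chromosome left out; genes with copies there were passed over. Genes named for the conservative list, the window and the threshold edges were chosen after their values were seen. Members and lists were chosen with earlier results of these data known. Alternatives were other windows, the conservative list, peaks at or above the optimal list's median signal, single replicates, other backgrounds and distinct summits. Tools were scipy 1.17.1 for tests, pandas 2.3.3 and numpy 2.4.6 for tables and matplotlib 3.10.9 for plots, under Python 3.11.15.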

Additional observations from a re-analysis of the deposited data

Results flagged for a closer look

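The candidate near Y95D11A.t1, a tRNA-Phe gene, was the only autosomal tRNA candidate that met the IDR threshold in the second pooled ranked list, the one whose IDR the optimal list follows, and was absent from the optimal list. In the pooled ranked list that defines the members, T04D3.t2 and Y110A2AL.t1 also met the threshold without being in the optimal list, and both were in the conservative list. It had a signal of 243 and ranked 25 of 82563, with a −log10 IDR of 4.32. It was in neither replicate's thresholded list and not in the conservative list. The part of repeated sequence in its signal was not tested.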

How the results depend on the processing

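Of 65 values under alternatives, 47 kept their direction and side of the threshold or moved little, 8 moved, 6 lost their call and 4 reversed. The selected share was 7.53% with a 100 bp window, 2.39% at or above the median signal of the optimal list, and 0 to 0.915% with a single replicate's lists. Genes with a selected peak numbered 11 at or above the median signal, 0 to 4 with a single replicate, and 11 without promoter summits. The cut at the median signal also removed optimal peaks away from tRNA genes. The share of all candidates selected under that cut was not computed, so the 2 shares cannot be compared there. The inside-gene difference was 11.7 points with the 100 bp window, 14.8 at or above the median signal and 38.1 without replicate 2, and the B box difference was 12.5, 30.6 and 45.5 points; none passed. Without replicate 2 the tests had 3 selected peaks, and without replicate 1 the 5 features could not be tested, with 0 selected. Reversed without a call were the share in a protein-coding gene (+17.8 points without promoter summits), the share with a copy (-3.35 points at or above the median signal, -9.95 without replicate 2) and the clustered share (+6.87 without replicate 2); the cause was not tested. The difference from X kept its direction and its call under every alternative run. No paired analysis was possible because the design has 1 group.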
